A study of Mus musculus with 24 samples.

Results

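Footprints of translating ribosomes were followed on 7 cytochrome P450 genes of the Cyp3a family in 24 mouse livers. The genes Cyp3a11, Cyp3a13, Cyp3a16, Cyp3a25, Cyp3a41a, Cyp3a41b and Cyp3a44 were chosen by family name, with earlier results of these data known. They are 7 of the 22429 genes in the count table, and all 7 were among the 12211 genes that passed the filter on low counts. The mice were male F1 hybrids of C57BL6J and FVBN, and their genotype was wild type or Ercc1 d/-, a progeroid line with 1 null and 1 truncated allele of the DNA repair gene Ercc1 in every cell. There were 6 groups of 4 livers: among wild types, ad libitum feeding at 16 and at 104 weeks and 30% dietary restriction at 16 weeks, and among mutants, ad libitum feeding at 7 and at 16 weeks and 30% restriction at 16 weeks. Restriction began at 7 weeks of age and was stepped up, all mice ate synthetic AIN93G pellets, and food was withheld before the livers were taken. Replicates are numbered in the labels without a statement on how the animals relate, so p-values measure the spread between these livers.

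Enzymes of the CYP3A family sit in the endoplasmic reticulum of hepatocytes and oxidise drugs, steroids and bile acids, with haem as the catalytic centre and electrons from P450 reductase and cytochrome b5. Their genes are classic targets of the xenobiotic receptors PXR, encoded by Nr1i2, and CAR, encoded by Nr1i3, which act with RXR and liver factors such as HNF4A. Cyp3a11 is the main CYP3A enzyme of adult mouse liver, Cyp3a41a, Cyp3a41b and Cyp3a44 are known for higher expression in females under the growth hormone pattern, Cyp3a16 is known from fetal liver, and Cyp3a13 is also made in the intestine.

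In the GRCm38.p6 build 6 of the members lie in a cluster at chr5:145345149-146198007, a span of 853 kb that also holds Cyp3a57, Cyp3a59 and 3 pseudogenes. Their gene spans are chr5:145436309-145469740 for Cyp3a16, chr5:145558664-145584732 for Cyp3a41b, chr5:145694049-145720136 for Cyp3a41a, chr5:145773983-145805891 for Cyp3a44, chr5:145854607-145879854 for Cyp3a11 and chr5:145977192-146009644 for Cyp3a25. Cyp3a13 lies 7420 kb away at chr5:137892933-137925610, and all 7 are on the minus strand. The 250 bases before the transcript start, taken from the RefSeq promoter table of that build for all 7 members, fell into sets by identity. Those of Cyp3a41a and Cyp3a41b were identical at 249 of 250 aligned positions. Identity among Cyp3a16, Cyp3a41a, Cyp3a41b and Cyp3a44 ran from 91.3% to 99.6%, and that of Cyp3a11 with these 4 from 72.5% to 76.6%. Cyp3a13 and Cyp3a25 reached 52.7% to 58.0% with each other and with any other member. Part of this stretch is shown for the 5 members that moved together, read 5′ to 3′ along the gene, with the letters TGTTTAC (the core bound by FOXA factors) and CAAAGTCCA (of the kind bound by HNF4A) in capitals:
Cyp3a11: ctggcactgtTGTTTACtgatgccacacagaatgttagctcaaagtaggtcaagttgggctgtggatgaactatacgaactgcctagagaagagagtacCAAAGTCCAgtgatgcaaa
Cyp3a16: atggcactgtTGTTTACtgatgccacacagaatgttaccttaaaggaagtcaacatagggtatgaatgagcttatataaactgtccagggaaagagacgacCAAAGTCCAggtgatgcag
Cyp3a41a: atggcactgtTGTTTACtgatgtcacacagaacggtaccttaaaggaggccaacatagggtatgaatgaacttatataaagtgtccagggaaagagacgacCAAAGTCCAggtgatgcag
Cyp3a41b: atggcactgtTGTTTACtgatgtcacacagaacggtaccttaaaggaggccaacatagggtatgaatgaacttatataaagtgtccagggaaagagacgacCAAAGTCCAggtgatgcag
Cyp3a44: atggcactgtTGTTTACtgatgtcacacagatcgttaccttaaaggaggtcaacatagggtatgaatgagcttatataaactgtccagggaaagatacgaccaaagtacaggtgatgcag

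The printed stretches lie at chr5:145879945-145880062 for Cyp3a11, chr5:145469804-145469923 for Cyp3a16, chr5:145720213-145720332 for Cyp3a41a, chr5:145584807-145584926 for Cyp3a41b and chr5:145805951-145806070 for Cyp3a44. TGTTTAC stood in all 5 and in neither Cyp3a13 nor Cyp3a25. On either strand it was in the 250 bases of 836 of 27025 genes (3.09%), with 1 listed start per gene. CAAAGTCCA stood in Cyp3a11, Cyp3a16, Cyp3a41a and Cyp3a41b, and in 103 genes in all (0.381%). Cyp3a44 carries the change C7A in it, counted from 1 at the 5′ end of the 9 letters, and no capitals mark that stretch. The letters of these 2 motifs were settled with the members' sequences in view, so their share among members is a description, and they do not overlap in the printed stretches. Of single nuclear receptor half-sites, AGGTCA was in Cyp3a11, Cyp3a25 and Cyp3a44 (13.8% of all genes) and AGTTCA in Cyp3a11, Cyp3a41a and Cyp3a41b (11.9%), each searched on both strands without regard to overlap. The STAT5 letters TTCNNNGAA, found in 7.18% of genes, were in no member within this window. The DR3 and ER6 pairs of the half-site AGTTCA, to which PXR binds with RXR, were in no member either. These exact pairs were in 0 and 2 of 27025 genes, so their absence from the members says little. Pairs of unlike half-sites were not searched.

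Total counts per library ran from 13366558 to 27084259. Ercc1 had 34 to 110 counts in the 12 wild-type livers and 1 to 15 in the 12 mutant livers, with no overlap. All 10 hepatocyte markers were detected in every group. Their summed level per library was 100470 to 256450.0 CPM, that is, counts brought to an equal scaled library size. Members are compared with themselves across groups and not with each other, because CPM is not per length. Counts of called members take each gene singly, though the ratio of Cyp3a41a to Cyp3a41b varied no more than counting error would give. Whether Cyp3a11, Cyp3a16 and Cyp3a44 share reads with them was not tested. Such counts are therefore not counts of independent genes.

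Cyp3a11 footprints were lowest in the oldest livers and highest in restricted mutants. The 4 young fed wild types had 2173, 1731, 2144 and 2528.5 CPM. Fed mutants had 1950.5, 2030.5, 1639 and 1419 CPM at 7 weeks and 932, 938, 638 and 835 CPM at 16 weeks. Restricted mutants had 3097, 2836, 3035 and 2671 CPM, and old wild types had 318, 204, 286 and 247 CPM. Restricted wild types were spread the widest, at 4078, 1157, 1862 and 1681.5 CPM, a coefficient of variation of 58.8% against 6.68% in restricted mutants. In the order of means, restricted mutants, restricted wild types, young fed wild types and mutants of 7 weeks each overlapped with the next group. Fed mutants of 16 weeks lay below all 4 of those and old wild types below them, with no overlap between neighbours. Cyp3a16, Cyp3a41a, Cyp3a41b and Cyp3a44 had the same order of group means, and for Cyp3a41b restricted mutants also lay wholly above restricted wild types. The 7 genes together took 0.475 ± 0.0721% of all counts in young fed wild types, 0.219 ± 0.0363% in fed mutants of 16 weeks, 0.79 ± 0.0592% in restricted mutants and 0.0887 ± 0.0158% in old wild types (SD, n = 4 each).

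**Figure D1:**
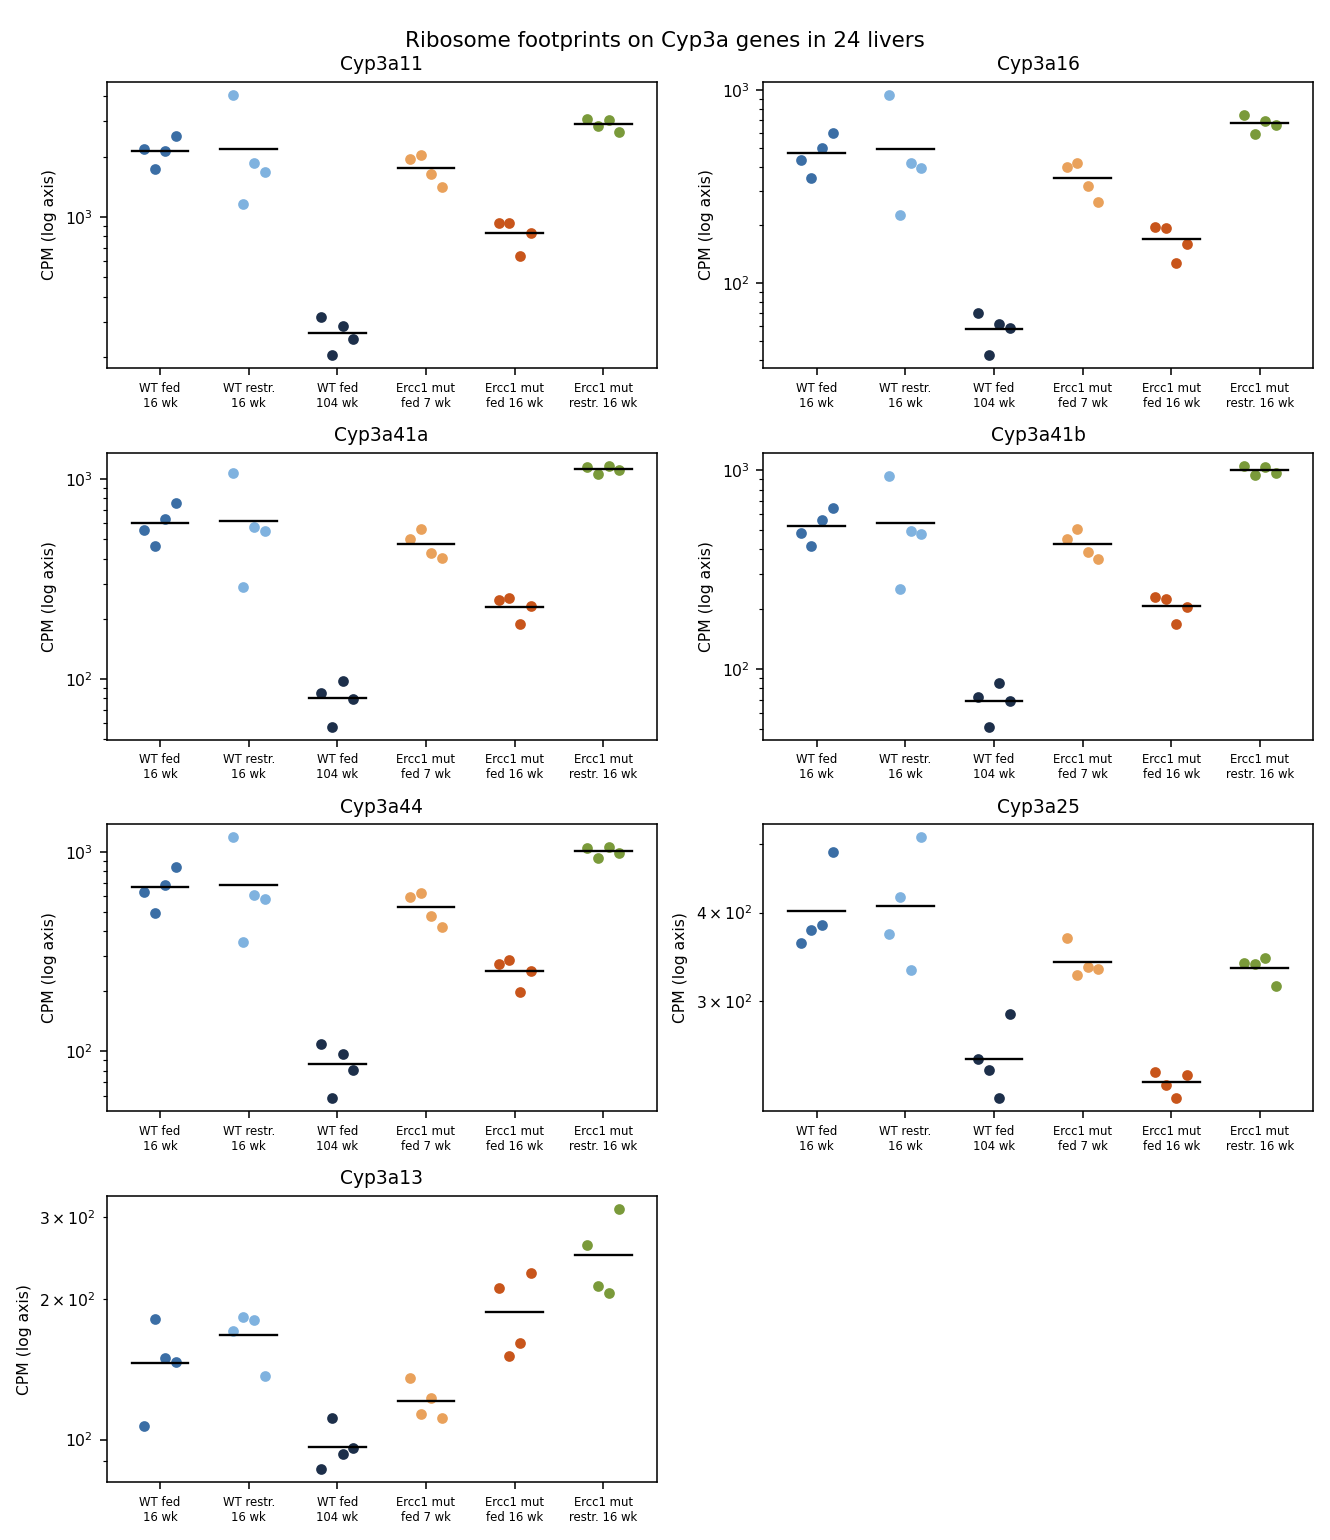
Footprints in CPM on a log axis for each of the 7 genes; a dot is 1 liver, a black line is the mean of the 4 livers of a group, and each panel has its own axis. In the panels of Cyp3a11, Cyp3a16, Cyp3a41a, Cyp3a41b and Cyp3a44 the old wild types lie lowest, and 1 restricted wild type (4078 CPM for Cyp3a11) lies above the other 3.

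The comparison of old with young wild types, both fed, asks what normal ageing does to the family. Footprints on all 7 genes fell, against 4.59% of tested genes that fell in this comparison. Cyp3a11 fell 8.13-fold, from 2144 ± 326 to 264 ± 49.4 CPM (SD, n = 4 each), a log2 change of -3.02 ± 0.27 (SE, adjusted p = 4.88e-08). Cyp3a16, Cyp3a41a, Cyp3a41b and Cyp3a44 fell by 7.53- to 8.10-fold, and Cyp3a41a went from 603 ± 127 to 80.1 ± 16.6 CPM. The 4 old livers lay below the 4 young ones for these 5 genes and for Cyp3a25, and non-overlap in this direction was seen in 8.98% of tested genes. Whole liver was measured, so fewer hepatocytes and fewer footprints per hepatocyte cannot be told apart from the family's values alone. Of 10 hepatocyte markers 1 rose (Cps1, log2 0.49) and 1 fell (Alb, log2 -0.62) in this comparison, with a list median of -0.0044 on the log2 scale.

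The other members moved far less with age. Cyp3a25 had 362, 378, 384 and 487 CPM in young and 248, 240, 219 and 288 CPM in old livers, a 1.62-fold fall (log2 -0.70 ± 0.13, adjusted p = 0.000685). Its counts rose from 18.9 ± 2.22% to 97.1 ± 23% of those of Cyp3a11, and the ranges did not overlap. Cyp3a13 had 107, 181, 149.5 and 147 CPM in young and 86.3, 111, 92.9 and 95.7 CPM in old livers, with overlap (log2 -0.60 ± 0.16, adjusted p = 0.0195). That call did not hold without young replicate 2 (adjusted p = 0.0959), old replicate 1 (adjusted p = 0.0625) or old replicate 3 (adjusted p = 0.053). Macrophage markers moved in the same comparison, and 8 of 11 rose. Their summed level was 251 to 296 CPM in young and 389 to 511 CPM in old livers. None of the 11 was at 0 in all livers of either group. B and plasma cell markers rose in 3 of 3 tested genes, and the 7 listed genes went from 1.40 to 4.23 CPM in sum in young to 34.9 to 83.2 CPM in old livers. Of 3 tested neutrophil genes 2 rose, and of 5 cholangiocyte markers 1 rose (Sox9). The part of these cells in the result was not tested.

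The comparison of fed mutants with fed wild types of 16 weeks asks what the Ercc1 defect does to the family. Footprints on 6 of the 7 genes fell, against 5.04% of tested genes that fell. Cyp3a11 fell 2.57-fold to 836 ± 140 CPM (log2 -1.36 ± 0.25, adjusted p = 0.000797). Cyp3a16 fell 2.79-fold, Cyp3a41a 2.62-fold, Cyp3a41b 2.54-fold and Cyp3a44 2.63-fold, with adjusted p from 0.000612 to 0.00184. Cyp3a25 fell 1.75-fold, to 238, 228, 219 and 236 CPM in the mutants, and had the smallest adjusted p of the family here (log2 -0.81 ± 0.13, adjusted p = 8.73e-05). The 2 groups did not overlap for these 6 genes, as for 11.4% of tested genes in this direction. Cyp3a13 did not pass, with 211, 151, 161 and 228 CPM in mutants and overlap with wild types (log2 0.36 ± 0.16, adjusted p = 0.167). Here 11 of 11 macrophage markers rose, from 251 to 296 CPM in sum in wild types to 486 to 644 CPM in mutants. None of them was at 0 in all livers of either group. Of 7 stellate cell markers 3 rose (Lum, Dcn and Lrat), with 203 to 306 CPM in sum in wild types and 339 to 453 CPM in mutants, 2 of 3 tested neutrophil genes rose and 1 fell, and 1 of 3 tested B and plasma cell genes rose. Of 10 hepatocyte markers 2 fell (Ttr, log2 -0.48, and Apob, log2 -0.50). The part of these cells in the result was not tested. Both this comparison and that of old with young wild types use the same young fed wild types.

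Fed mutants of 16 weeks were set against fed mutants of 7 weeks to follow the family between these ages. Wild types of 7 weeks were not among the groups. Ageing particular to mutants therefore cannot be told apart from a change that wild types may share between these ages. Of the 7 genes 1 fell, against 0.188% of tested genes. That gene was Cyp3a25, which fell 1.48-fold from 368, 326, 334 and 332 CPM (log2 -0.56 ± 0.13, adjusted p = 0.0357). Its call did not hold when any 1 of the 8 livers was left out, with adjusted p from 0.0622 without replicate 4 of 7 weeks to 0.141 without replicate 1 of 7 weeks, or with total counts as the scale (adjusted p = 0.142). Cyp3a11 had a log2 change of -1.07 ± 0.25 (adjusted p = 0.0531), and Cyp3a16, Cyp3a41a, Cyp3a41b and Cyp3a44 had values of -1.07 to -1.04 (adjusted p = 0.0534 to 0.123). Cyp3a13 went the other way, from 136, 113, 122 and 111 CPM at 7 weeks, at 0.64 ± 0.16 (adjusted p = 0.0723). In all 7 genes the 2 ages did not overlap, 6 lower and 1 higher at 16 weeks, and 10.7% of tested genes had no overlap. DESeq2 called all 7, 6 lower and 1 higher, and so did a fit of these 8 livers alone. Both called more of all tested genes, 1.37% with DESeq2 and 3.8% with these livers alone, where the main fit called 0.434%. Of 11 macrophage markers 2 rose, with 305 to 465 CPM in sum at 7 weeks, and so did 1 of 3 tested neutrophil genes (S100a9). Among all tested genes 0.434% were called in either direction here. The part of these cells in the result was not tested.

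**Figure D2:**
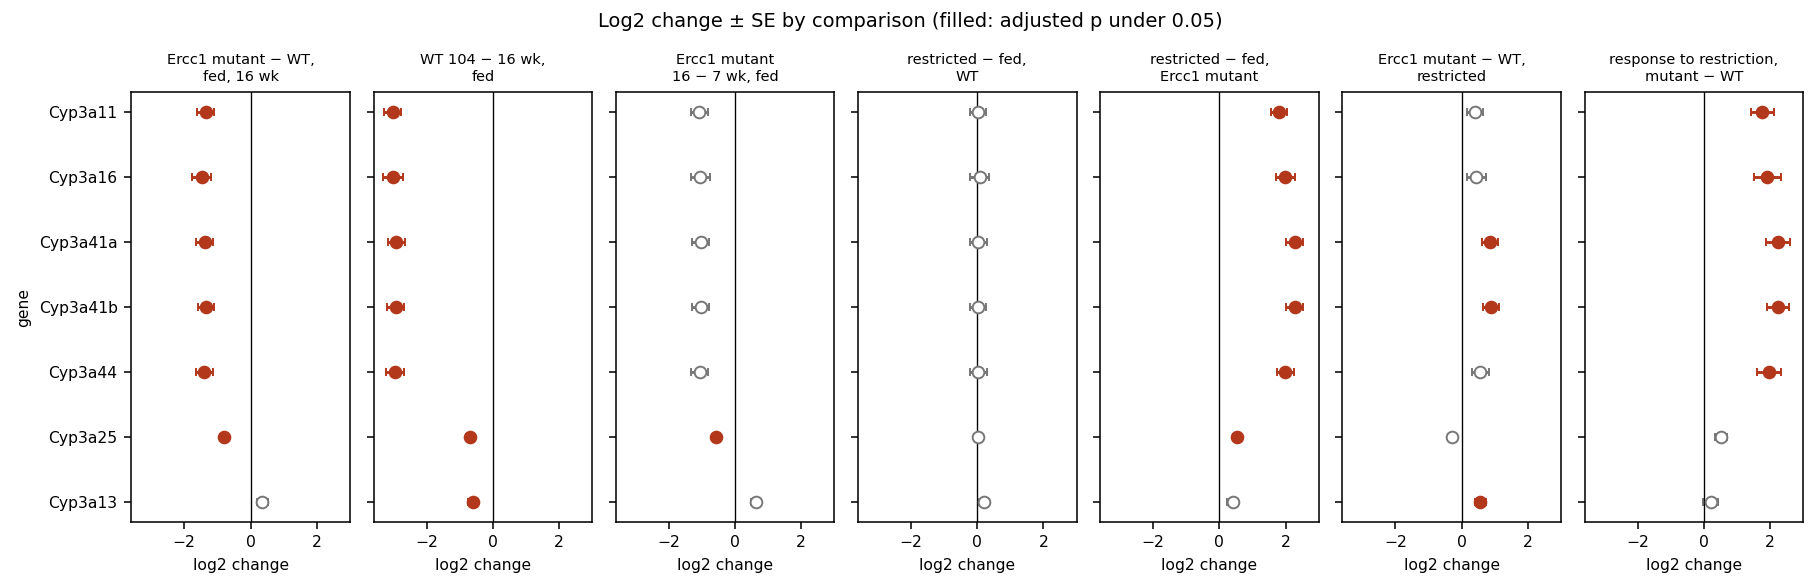
Log2 change with its standard error for each of the 7 genes in the 6 comparisons of groups and, at the right, the response to restriction in mutants minus that in wild types; filled symbols have an adjusted p under 0.05. All 7 symbols are filled to the left of 0 in the ageing panel, 5 to the right of 0 in the last panel, and none in the panel of restricted wild types.

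Restriction of wild types was not followed by a measurable change of any member. None of the 7 passed the threshold, where 12.1% of tested genes did, and with edgeR 0 had an unadjusted p under 0.05, where 26.8% of tested genes did, while DESeq2 also called 0. The fed and restricted groups overlapped for all 7, where 14.6% of tested genes had no overlap. Cyp3a11 had 2194.5 ± 1290.5 CPM under restriction, a log2 change of 0.03 ± 0.25 with a 95% interval from -0.49 to 0.55 (adjusted p = 0.954). The intervals of the other 6 members lay between -0.53 and 0.67, so changes of those sizes lie within the error. That error was estimated over all 24 libraries. In restricted wild types the coefficient of variation was 51.8% to 62.8% for Cyp3a11, Cyp3a16, Cyp3a41a, Cyp3a41b and Cyp3a44. For these genes the intervals may be too narrow, and larger changes are not excluded. Restricted replicate 1 had 943 CPM for Cyp3a16, 1070.5 for Cyp3a41a, 936 for Cyp3a41b and 1179 for Cyp3a44, while the other 3 livers ran from 225 to 416, 287 to 572, 254 to 497 and 352 to 608 CPM. For Cyp3a25 and Cyp3a13 the same liver lay inside the range of the other 3. Without it the log2 change of Cyp3a11 was -0.44 (adjusted p = 0.115) and those of Cyp3a16, Cyp3a41a, Cyp3a41b and Cyp3a44 were -0.44 to -0.35, none of them called. Of other cell markers 3 of 7 stellate, 2 of 11 macrophage and 1 of 6 endothelial genes rose with restriction. So did 2 of 3 tested B and plasma cell genes (Igkc and Ighm), against 5.44% of all tested genes that rose. Among 10 hepatocyte markers 2 rose (Ass1 and Alb). Fabp2, 1 of 2 tested enterocyte genes, fell, against 6.71% of all tested genes. Its fall was not particular to this comparison. Fabp2 also fell in fed mutants against fed wild types (adjusted p = 0.00254), with age (adjusted p = 0.000136) and with restriction of mutants (adjusted p = 0.00169). The part of these cells in the result was not tested.

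Restriction of mutants was followed by a rise of 6 of the 7 members, against 5.59% of tested genes that rose. The fed mutants are the same livers as in the comparisons with fed wild types and with mutants of 7 weeks. They enter the interaction as well, so these results are not independent of each other. Cyp3a41a rose 4.85-fold, from 247, 253, 189 and 232 CPM to 1145, 1059, 1159 and 1103 CPM (log2 2.28 ± 0.26, adjusted p = 1.96e-06). Cyp3a41b rose 4.84-fold to 1003 ± 48.5 CPM, Cyp3a44 3.98-fold to 1005 ± 57.8 CPM, Cyp3a16 3.98-fold to 673 ± 63.6 CPM and Cyp3a11 3.48-fold to 2910 ± 194 CPM, with adjusted p from 1.52e-06 to 7.97e-05. Cyp3a25 rose 1.45-fold to 339, 338, 344 and 315 CPM (log2 0.54 ± 0.13, adjusted p = 0.0053). The restricted livers lay above the fed ones for these 6 genes, as for 8.43% of tested genes. Cyp3a13 had 261, 213, 206 and 312 CPM under restriction, with overlap (log2 0.40 ± 0.16, adjusted p = 0.111). None of 11 macrophage markers passed, with a summed level of 486 to 644 CPM in fed and 493 to 635 CPM in restricted mutants, and Marco went from 3.75 to 9.93 CPM (adjusted p = 0.0607). The endothelial markers Lyve1 (log2 1.73) and Pecam1 (log2 0.69) and the cholangiocyte marker Krt19 rose, and of 10 hepatocyte markers 3 rose and 2 fell, among them Alb (log2 0.73) and Ttr (log2 -0.50). The part of these cells in the result was not tested.

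The response to restriction was larger in mutants than in wild types for 5 members, tested as an interaction over the 16 livers, where 0.516% of tested genes had a larger response in mutants. The difference in log2 change was 2.24 ± 0.35 for Cyp3a41a and for Cyp3a41b (adjusted p = 0.00165 each), 1.96 ± 0.36 for Cyp3a44 (adjusted p = 0.00631), 1.92 ± 0.41 for Cyp3a16 (adjusted p = 0.0226) and 1.77 ± 0.35 for Cyp3a11 (adjusted p = 0.012). That of Cyp3a25 was 0.51 ± 0.18 (adjusted p = 0.178) and that of Cyp3a13 0.20 ± 0.23 (adjusted p = 0.782), and neither passed. Without restricted wild-type replicate 1 the difference was 2.24 for Cyp3a11 and 2.35 to 2.63 for the other 4 called members. The call of Cyp3a16 was lost with total counts as the scale (adjusted p = 0.0639) and without any 1 of 7 livers (adjusted p = 0.0508 to 0.0603).

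Restricted mutants were also set against restricted wild types. Of the 7 genes 3 were higher in mutants, against 9.38% of tested genes: Cyp3a41b at 1.86-fold (log2 0.89 ± 0.24, adjusted p = 0.0123), Cyp3a41a at 1.80-fold (log2 0.85 ± 0.25, adjusted p = 0.0181) and Cyp3a13 at 1.48-fold (log2 0.56 ± 0.16, adjusted p = 0.0166). Cyp3a11 had a log2 difference of 0.41 with a 95% interval from -0.11 to 0.93, and Cyp3a25 of -0.29 with an interval from -0.55 to -0.03 (adjusted p = 0.104). Cyp3a13 and Cyp3a41b had no overlap between the groups, as 8.31% of tested genes in this direction. The calls of Cyp3a41a and Cyp3a41b are not separate, since their count ratio varied no more than counting error would give. The calls of this comparison turn on single livers. Without restricted wild-type replicate 1, 6 members were called higher, with Cyp3a11 at 0.89 (adjusted p = 0.00138). Without restricted wild-type replicate 4, Cyp3a41b was the 1 call left, without replicate 3 Cyp3a41a was lost (adjusted p = 0.0512) and Cyp3a25 was lower in mutants (adjusted p = 0.0279), and without restricted mutant replicate 4 Cyp3a13 was lost (adjusted p = 0.0849). A fit of these 8 livers alone called 0. In this comparison 6 of 11 macrophage markers (Mpeg1, log2 1.05, and Cd5l, log2 0.93) and 2 of 7 stellate markers were higher in mutants. Of 10 hepatocyte markers 3 were lower and 1 was higher, where 8.85% of tested genes were lower, and the part of these cells in the result was not tested.

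Counts were also set against those of Cyp3a11 in the same liver, a choice made after the values were seen. Cyp3a41a had 26.9% to 30.4% of the counts of Cyp3a11 in the means of the other 5 groups and 38.4 ± 1.95% in restricted mutants. Each of the 4 restricted mutants, at 37.0% to 41.3%, lay above each of the other 20 livers, at 24.8% to 34.0%. Cyp3a41b had 33.6% to 36.4% in restricted mutants and 21.9% to 29.7% in the other 20 livers, again with no overlap. Cyp3a44 had 32.8% to 37.0% and Cyp3a16 20.9% to 24.8%, and both overlapped with the other 20. These ratios are free of library scaling.

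The ratio of Cyp3a41a to Cyp3a11 was 0.47 higher on the log2 scale in restricted than in fed mutants (exact 2-sided permutation p = 0.0286, the smallest that 4 against 4 allows). Of 24 such ratio tests, 4 genes in 6 comparisons, 5 had that p and none passed after Benjamini-Hochberg adjustment (adjusted p = 0.137 for these 5). With Cyp3a44 in place of Cyp3a11 the value was 0.28, with the same p.

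**Figure D3:**
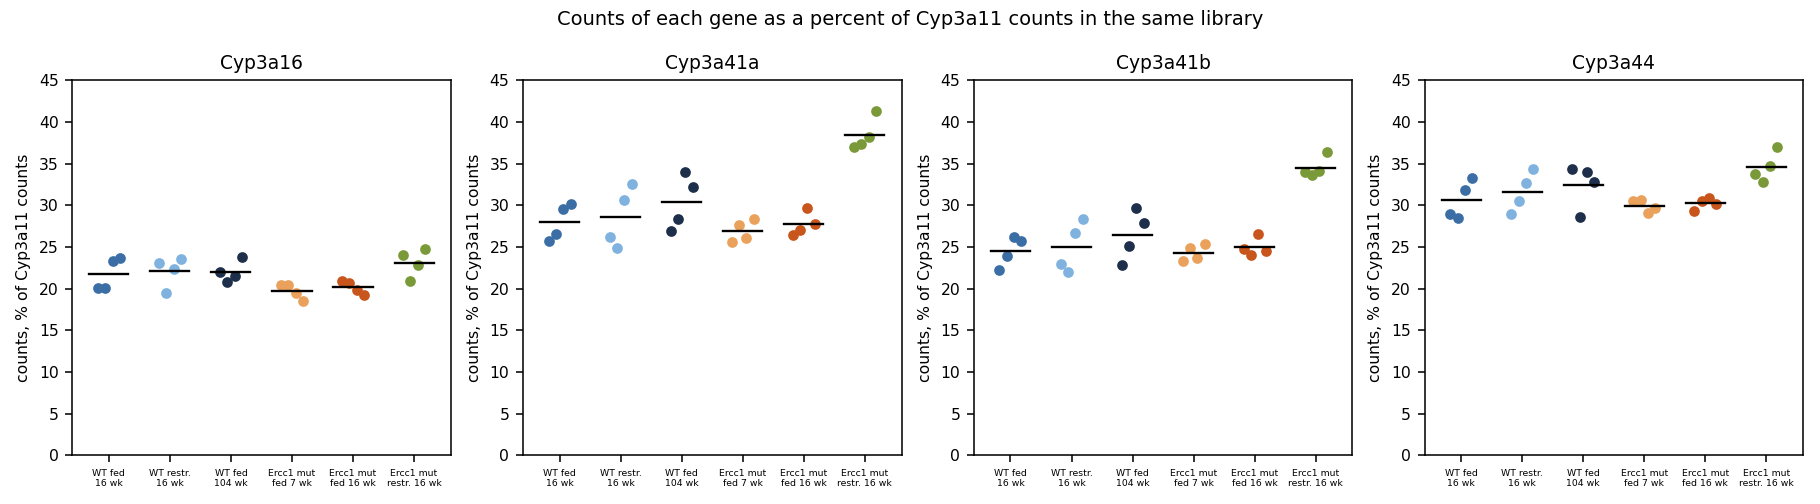
Counts of Cyp3a16, Cyp3a41a, Cyp3a41b and Cyp3a44 as a percent of Cyp3a11 counts in the same liver, on a linear axis from 0; a dot is 1 liver and a line is the group mean. For Cyp3a41a and Cyp3a41b the 4 restricted mutants (37.0% to 41.3% and 33.6% to 36.4%) lie above the other 20 livers.

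Several of these genes are near-identical copies, and how reads that fit more than 1 of them were assigned is not given in the sources used here. The count ratio of Cyp3a41a to Cyp3a41b was 1.07 to 1.18 over the 24 livers, and the SD of its natural log was 0.0224, against 0.0233 from counting error. Their separate values therefore carry little beyond their sum. Cyp3a59, a neighbour in the cluster and no member, kept a like proportion to Cyp3a25, with an SD of 0.0227 against 0.0216 from counting error. Ratios of Cyp3a11 to Cyp3a16, Cyp3a41a, Cyp3a41b and Cyp3a44 varied by 7.25% to 13.5% (coefficient of variation), and those to Cyp3a13 and Cyp3a25 by 58.4% and 55.6%. Levels of Cyp3a16, Cyp3a41a, Cyp3a41b and Cyp3a44 one by one are uncertain for this reason, and whether reads of Cyp3a11 add to them was not tested. The level of Cyp3a25 apart from that of Cyp3a59 is uncertain in the same way.

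Counts of listed genes stand against the share of all tested genes. In fed mutants against wild types 5.69% rose and 5.04% fell, with age 4.75% rose and 4.59% fell, with restriction of wild types 5.44% rose and 6.71% fell, and with restriction of mutants 5.59% rose and 6.04% fell. Transcription factors of Cyp3a genes were described from a list of 20 factors and cofactors. In old against young wild types 1 fell and none rose, a share near that of all genes, with a list median of 0.01 on the log2 scale, where the median of all tested genes was -0.02 to 0.02 across the 7 contrasts. That gene was Nr1i3, the gene of CAR, which went from 76.7, 59.2, 42.2 and 61.8 CPM to 19.7, 17, 27.3 and 30.3 CPM (log2 -1.35 ± 0.39, adjusted p = 0.0332). In fed mutants against wild types of 16 weeks Ahr, the dioxin receptor, rose and 4 factors fell, among them Foxa2 (log2 -1.24 ± 0.36, adjusted p = 0.0289). Nr1i3 had 13.8, 35.3, 34 and 27.3 CPM in those mutants and did not pass (log2 -1.12 ± 0.39, adjusted p = 0.069). Under restriction of mutants Foxa2 rose (log2 1.27 ± 0.36, adjusted p = 0.0238), as did the coactivator Ppargc1a, whose restricted mutants ran from 4.79 to 47.1 CPM. Nr1i3 had a log2 change of 0.64 ± 0.38 (adjusted p = 0.321). In wild types Foxa2 had 24.3 ± 9.17 CPM in young fed, 27.5 ± 5.07 CPM in old and 40.6 ± 19.6 CPM in restricted livers. It was called neither with age nor with restriction of wild types. Nr1i2, the gene of PXR, fell in restricted wild types, from 30.3 ± 3.31 to 18.3 ± 8.15 CPM (adjusted p = 0.0319), and passed in no other comparison. Hnf4a passed in none of the 7 contrasts, with 201 to 304 CPM in the group means. Values of Nr1i2, Nr1i3, Foxa2, Hnf4a and Por that were not called are given for their known role, a choice made after they were seen.

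**Figure D4:**
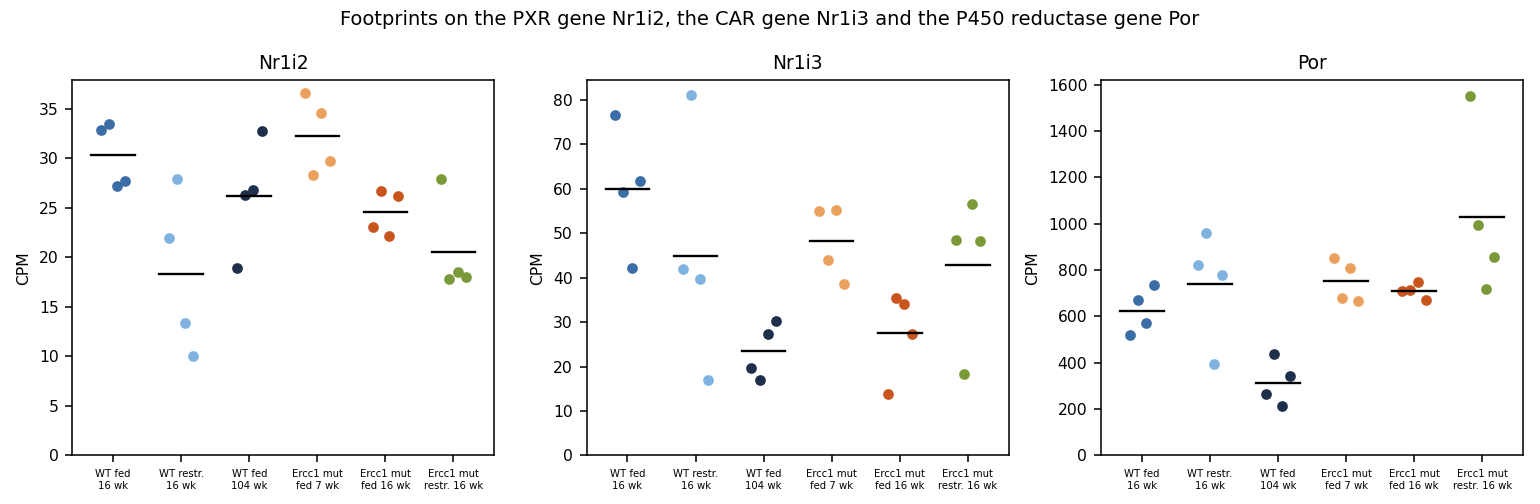
Footprints in CPM, on linear axes from 0, for the PXR gene Nr1i2, the CAR gene Nr1i3 and the P450 reductase gene Por; a dot is 1 liver and a line is the group mean. Old wild types lie low for Nr1i3 (mean 23.6 CPM) and Por (mean 314 CPM), and Nr1i2 in restricted wild types spreads from 10 to 27.9 CPM.

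Of 14 genes that feed electrons to P450 enzymes or make or break haem, 1 rose and 2 fell with age, against 4.75% and 4.59% of all tested genes (list median -0.04). Por, the reductase that serves P450 enzymes, went from 519, 671, 573 and 735 to 265, 437, 214 and 341 CPM (log2 -0.99 ± 0.24, adjusted p = 0.01). Cpox, a haem synthesis enzyme, fell from 172 ± 32.9 to 94.9 ± 11 CPM, and Hmox1, which degrades haem, rose from 12.4 ± 0.867 to 28 ± 2.81 CPM (adjusted p = 0.00337). In fed mutants against wild types of 16 weeks 1 of the 14 fell, against 5.04% of all tested genes. It was Cyb5b, a cytochrome b5 of the mitochondrial outer membrane (log2 -0.62 ± 0.17, adjusted p = 0.0155). Por had 624 ± 96.7 CPM in wild types and 711 ± 32 CPM in mutants and did not pass (adjusted p = 0.692). In restricted against fed mutants 4 fell and 1 rose, against 6.04% and 5.59%. Cyb5b fell from 86.8 ± 11.7 to 44.7 ± 8.68 CPM, Cyb5r3, the cytochrome b5 reductase, from 315 ± 13.2 to 220.5 ± 13.6 CPM, and Hmox1 rose. The list median was -0.32 in that comparison, in which 6 Cyp3a genes rose.

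Other targets of PXR and CAR, 27 genes tested, moved in both directions. With age 8 fell, against 4.59% of all tested genes, and none rose (list median -0.14), among them the transporter gene Abcc3 and Cyp2b10, the classic CAR target, which fell from 49.4 ± 18.9 to 4.51 ± 0.919 CPM (adjusted p = 1.32e-05). In fed mutants against wild types of 16 weeks 5 fell and 4 rose, against 5.04% and 5.69% (list median 0.06), with Cyp2c29 falling from 1507 ± 475 to 144 ± 17.8 CPM and Cyp2b10 to 1.25 ± 1.04 CPM. Restriction was followed by 11 rises and 4 falls in wild types, against 5.44% and 6.71% (list median 0.49), and by 12 rises and 3 falls in mutants, against 5.59% and 6.04% (list median 0.67). Among them Slco1a4, a bile acid and drug transporter, rose from 78.3 ± 10.5 to 235 ± 25.3 CPM in wild types and from 86.8 ± 21.5 to 349 ± 47 CPM in mutants. The interaction was called for 3 of the 27, all with the larger response in mutants, against 0.516% of all tested genes. For Cyp2c29 it was 2.51 ± 0.30 (adjusted p = 3.44e-05), for Cyp2b10 3.55 ± 0.57 (adjusted p = 0.00239) and for Cyp2b9, which is also on the female-biased list, 3.51 ± 0.66 (adjusted p = 0.012).

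Of 21 tested female-biased liver genes outside the family, 8 fell and 3 rose in fed mutants against wild types, where 5.04% and 5.69% of all tested genes did, and 7 fell and 2 rose with age, where 4.59% and 4.75% did. Under restriction of wild types 12 rose and none fell, against 5.44% and 6.71%, and under that of mutants 15 rose and 2 fell, against 5.59% and 6.04%. Cyp2c39 had 456 ± 61.9 CPM in fed and 882 ± 116 CPM in restricted wild types. It had 81 ± 7.45 CPM in fed and 783 ± 87.7 CPM in restricted mutants, and an interaction of 2.32 ± 0.26 (adjusted p = 1.64e-05). The interaction was called for 3 of the 21 with the larger value in mutants and for 2 with the smaller, against 0.516% and 0.287% of all tested genes. Those 2 were Cyp2c40 (-1.58 ± 0.25) and Cyp2c69 (-1.60 ± 0.26), with an adjusted p of 0.00165 each. Of 20 male-biased genes 8 rose and 3 fell in fed mutants and 5 rose and 2 fell with age. Of these 20 genes 16 fell with restriction of wild types and 19 with that of mutants, and none rose in either. Ghr, the growth hormone receptor, fell from 179 ± 11 to 97.5 ± 36 CPM with restriction of wild types and with that of mutants from 118 ± 9.61 to 55.9 ± 5.11 CPM, and was the 1 gene of 10 in the growth hormone list that fell in fed mutants (log2 -0.61 ± 0.16, adjusted p = 0.0173). Of 17 acute-phase genes 3 rose in fed mutants and 2 with age. With restriction 3 fell and 1 rose in wild types, with Saa1 at a log2 change of -5.23 and Saa2 at -5.05, and 3 fell in mutants, Saa1 at -4.97, Saa2 at -5.03 and Saa3 at -4.53. Saa1 ran from 89.9 to 2459 CPM in fed and from 20 to 37 CPM in restricted mutants.

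Genes outside the family with the most similar profile were found by the root mean square difference of centred log2 CPM over the 24 livers, a measure of likeness with no test. For Cyp3a11 these were Fmo2, a flavin monooxygenase on the female-biased list (0.67), Flvcr2, a membrane transporter (0.67), and Cda, cytidine deaminase (0.69), where the median tested gene was at 1.29 and the nearest 1% within 0.96. Flvcr2 was first for Cyp3a16, Cyp3a41a, Cyp3a41b and Cyp3a44, at 0.61 to 0.67, with 1.04 ± 0.345 CPM in old wild types and 10.9 ± 2.2 CPM in restricted mutants. Etnppl, an enzyme of phosphoethanolamine breakdown, was second for Cyp3a41a and Cyp3a41b (0.69), with 62.3 ± 21.3 CPM in fed and 432.5 ± 197 CPM in restricted mutants. The nearest genes of Cyp3a25 were the mitochondrial genes Etfdh, Atp5l and Ech1 (0.22 each), and of Cyp3a13 Tomm70a (0.25), Hgsnat and Surf2 (0.28 each). Cyp3a11, Cyp3a16, Cyp3a41a, Cyp3a41b and Cyp3a44 were at 0.03 to 0.20 from each other.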

How the data were processed

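Ribosome footprints were measured in 24 livers, 6 groups of 4. The deposited gene table holds raw counts: its values are whole numbers that sum to a different total in each library. The submitters' processing notes name build GRCm38.p6 and the tools cutadapt 3.4, Trimmomatic 0.39, Bowtie2 2.4.2, featureCounts, Subread 1.6.4 and STAR in versions 2.7.8a and 2.7.0f. Neither the annotation release nor the handling of reads that fit several genes is given there. The deposited table of open reading frames was not used.

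The test was edgeR 4.0.16 (R 4.3.3) on these counts: filterByExpr left 12211 genes, TMM scaled the libraries, and the quasi-likelihood fit, robust, with 1 term per group over all 24 libraries, had 18 residual degrees of freedom (biological coefficient of variation 24.2%). Adjusted p is Benjamini-Hochberg over all tested genes, threshold 0.05, 2-sided. CPM uses scaled library sizes, SE is the log2 change over the square root of F, and 95% intervals use a t value with 18 degrees of freedom. Promoters were aligned with Biopython 1.88. The fit was also run on 1 simulated data set of the fed mutant comparison, with 11608 genes. All genes and groups had the same dispersion there, unlike in the livers. In it 58% of genes changed 1 log2 unit and 100% of those changed 2 units were called. Of the genes called, 5.39% were unchanged ones.

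The members, lists and naming rule were chosen with earlier results of these data known. The text names all 7 members, the 3 nearest genes of each, and from each list and contrast up to 3 genes, by smallest adjusted p. Further values of such genes, and Hnf4a, were chosen after they were seen. Alternatives were DESeq2 1.42.0, other scaling, no filter, the compared groups alone, a replicate block and leaving out each library. Correlations of deviations between same-numbered livers ran from -0.186 to 0.25, and no comparison had every pair above 0.1. Low correlations cannot exclude that the replicate numbers mark a shared litter or batch, which the labels do not state.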

Additional observations from a re-analysis of the deposited data

Results flagged for a closer look

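The response to dietary restriction differed between mutants and wild types in 5 members, by the interaction test over 16 livers. The difference in log2 change was 1.77 for Cyp3a11, 1.92 for Cyp3a16, 2.24 for Cyp3a41a, 2.24 for Cyp3a41b and 1.96 for Cyp3a44. Fed wild types and restricted wild types enter this difference as well, and restricted wild-type replicate 1 lies above the other 3 for these 5 genes. In none of the 42 sets of 4 values, 7 genes in 6 groups, did the highest or lowest liver stand apart by Dixon's measure.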

How the results depend on the processing

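The count of called members was the same under every alternative for fed mutants against wild types (6), restriction of wild types (0) and restriction of mutants (6), and with age it was 7, or 6 to 7 when 1 liver was left out. In mutants of 16 against 7 weeks the count of 1 became 7 with DESeq2, 2 with RLE size factors, 4 with the replicate block and 7 with the compared groups alone, and 0 without any 1 liver. With total counts it stayed at 1, but the gene was Cyp3a13 in place of Cyp3a25. Restricted mutants against restricted wild types had 3 calls, 0 with the compared groups alone and 1 to 6 when 1 liver was left out. The interaction had 5 calls, 4 with total counts, without the filter or with the compared groups alone, and 4 to 5 when 1 liver was left out. Under the replicate block the log2 change with restriction of wild types turned to -0.052 for Cyp3a11, -0.030 for Cyp3a16, -0.019 for Cyp3a41a, -0.026 for Cyp3a41b and -0.031 for Cyp3a44. When 1 liver was left out it ran from -0.44 to 0.24 for Cyp3a11, -0.44 to 0.31 for Cyp3a16, -0.35 to 0.27 for Cyp3a41a, -0.36 to 0.27 for Cyp3a41b, -0.36 to 0.25 for Cyp3a44 and -0.067 to 0.15 for Cyp3a25. None of these sign changes involved a call, and no other result changed sign. Beyond these, the replicate block changed no call. The log2 ratio of Cyp3a41a to Cyp3a11 was 0.44 to 0.50 when 1 liver was left out, where the smallest possible p is 0.0571. Of 84 group means in CPM under another scaling, 5 moved by more than 1 SD. Over all genes, fits of the compared groups alone called 2138 in place of 1310 genes for fed mutants against wild types, 436 in place of 53 for the mutant ages, 658 in place of 1483 for restriction of wild types and 769 in place of 2227 for restricted mutants against wild types. DESeq2 called 167 genes for the mutant ages and 279 in place of 98 for the interaction, and total counts called 99 for the mutant ages. The causes were not tested. Counting error is small at these levels, and 4 livers a group limit the precision.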
